A study of Rattus norvegicus with 3 samples.

Results

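Albumin (Alb), fetuin-A (Ahsg), alpha-2-macroglobulin (A2m) and alpha-1-B glycoprotein (A1bg) are 4 proteins that hepatocytes release into the blood, and their RNA was followed here in rat liver on 3 spotted 2-colour arrays. The genes were picked by name, as the spots whose gene symbol or description names one of them, which gave 8 of the 11394 gene spots and 4 of the 5654 genes measured. Each gene had 1 probe, printed on 2 neighbouring spots. The liver RNA came from male spontaneously hypertensive rats (SHR), inbred animals that develop high blood pressure as they grow up, and from Wistar Kyoto rats (WKY), its normotensive relative, whose tissue was pooled. The first array held SHR of 1 month against pooled WKY, the second SHR of 3 months against pooled WKY, and the third SHR of 1 month against SHR of 3 months. The labels call SHR and WKY age-matched and name pooled WKY of 1 and 3 months. They list no separate age for the WKY channel of either strain array. Each WKY pool is read here as being of the age of the SHR beside it. No animal carried an engineered allele or received an agent, per the labels, and the labels do not say how many animals each RNA came from. There was 1 array per comparison, without a replicate or a dye swap, and no difference below has a replicate check or a p-value.

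Albumin is the most abundant protein of plasma, where it holds water in the vessels and carries fatty acids, bilirubin, hormones and drugs. Fetuin-A is a plasma carrier that keeps calcium phosphate from precipitating and that can inhibit the insulin receptor. Alpha-2-macroglobulin traps proteases of many kinds, and in rats it is a classic acute-phase protein, induced in the liver by interleukin-6, while albumin and fetuin-A are negative acute-phase proteins whose synthesis drops in inflammation. Alpha-1-B glycoprotein is a plasma protein of the immunoglobulin fold, and in rat liver its RNA is higher in females than in males under the control of growth hormone. Transcription of the albumin gene in hepatocytes rests on a short promoter bound by C/EBP, NF1, NF-Y and other proteins.

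The promoters of 3 of the 4 genes were in the RefSeq table used here, on build GRCr8, and are shown because albumin and fetuin-A had the lowest ratios of the 4 genes at 3 months, while A1bg was nearest to 0. Each run is the 250 bases before the RefSeq start of the gene, read 5′ to 3′ on the strand of the gene, all on the minus strand of the chromosome: chr14:17906980-17907229 for Alb, chr11:91632584-91632833 for Ahsg and chr7:94387497-94387746 for A1bg.
Alb: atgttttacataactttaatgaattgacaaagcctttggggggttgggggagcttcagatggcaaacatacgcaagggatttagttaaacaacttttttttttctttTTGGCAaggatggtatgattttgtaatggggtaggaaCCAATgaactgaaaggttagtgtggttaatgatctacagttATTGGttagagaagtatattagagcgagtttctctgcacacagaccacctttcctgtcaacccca
Ahsg: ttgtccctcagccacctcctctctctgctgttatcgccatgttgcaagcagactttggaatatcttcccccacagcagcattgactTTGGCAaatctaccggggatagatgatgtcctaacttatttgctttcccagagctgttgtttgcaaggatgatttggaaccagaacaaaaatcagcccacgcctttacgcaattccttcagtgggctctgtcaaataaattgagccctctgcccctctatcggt
A1bg: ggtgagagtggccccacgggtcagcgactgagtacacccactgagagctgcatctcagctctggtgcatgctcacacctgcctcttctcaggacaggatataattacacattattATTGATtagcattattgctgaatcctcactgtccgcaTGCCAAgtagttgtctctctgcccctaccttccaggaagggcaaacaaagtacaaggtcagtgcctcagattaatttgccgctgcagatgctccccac
Capitals mark matches, on either strand, to 3 motifs: the CCAAT box as CCAAT, an NF1 site as TTGGCA and HNF6 as ATTGAT. No match overlapped another. The Alb run held 2 CCAAT boxes, from 106 to 102 and, on the opposite strand, from 65 to 61 bases before the start, a motif in 34% of the 33469 promoters searched over the same window. All 3 runs held 1 NF1 site, which 12% of promoters have, and the A1bg run alone held the HNF6 letters, which 7.1% have. These matches describe the letters of the windows and say nothing of binding.

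The second column of each file was the dimmer one, with median raw intensities of 2270, 2162 and 1448 against 3405, 3460 and 2405 in the first column. All ratios are log2 values of the second column over the first, after background correction and loess normalization, so that they are relative to the median gene. Before normalization the median log2 ratio was -0.51, -0.36 and -0.65. Over the 2 spots of a probe, the pooled SD was 0.056, 0.046 and 0.052 log2 units on the 3 arrays. That SD covers printing and scanning within 1 hybridisation and says nothing of animals. On the strain arrays the ratio is SHR over WKY. On the SHR age array the file header names the second column as SHR of 3 months and the ratio is given as 3 months over 1 month, but the labels put the dye Alexa647 on SHR of 1 month there and on SHR on the strain arrays. No source used here says which dye the second column holds, so the direction of that array is not settled and every sign from it turns if the columns are the other way round. Between 97.7% and 99.1% of gene spots were above background in both channels, genes of other organs included. Presence above background therefore gave no check of the tissue.

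Albumin RNA was about 2-fold lower in SHR than in WKY at 3 months and close to WKY at 1 month. At 3 months its raw intensities were 11954 and 13154 for WKY against 4357 and 4265 for SHR on the 2 spots. Both SHR readings lay far below both WKY readings, on an array whose second column was dimmer throughout. After normalization the log2 ratio was -1.01 ± 0.12 (SD between 2 spots, 1 array), or 49.6% of the WKY level. The spots gave -0.93 and -1.10, a wider gap than the pooled SD of that array, but neither spot was near 0. Only 3 of 5615 genes had a lower ratio. At 1 month the raw intensities were 12415 and 14419 for WKY against 9303 and 10533 for SHR. The log2 ratio there was -0.15 ± 0.05, with 1418 of 5648 genes lower, and it had the opposite sign, 0.07, when the arrays were only centred on their median.

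On the SHR age array, albumin again stood low in the column headed SHR of 3 months. Its raw intensities were 11220 and 10986 for SHR of 1 month against 3595 and 3607 for SHR of 3 months, so the spots of each column agreed closely and the columns were far apart. The log2 ratio was -1.10 ± 0.03, or 1.10 with the sign of the array turned, and 31 of 5650 genes were lower. This array and the 3-month strain array share the RNA of SHR at 3 months, which the headers place in the second column of both. Albumin was the 1 gene of the 4 that was at least 1.5-fold lower, both at 3 months, where 1.5% of all genes were, and on the SHR age array, where 5.4% were. At 1 month 0 of the 4 genes were 1.5-fold apart, against 2.43% of genes lower and 0.195% higher. No albumin spot was near the top of the scanner range: the brightest read 14419, where the brightest spot of each column read 42938 to 65535. The median ratio of the gene spots in the same printing block as albumin was 0.03, -0.10 and 0.02 on the 3 arrays.

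**Figure D1:**
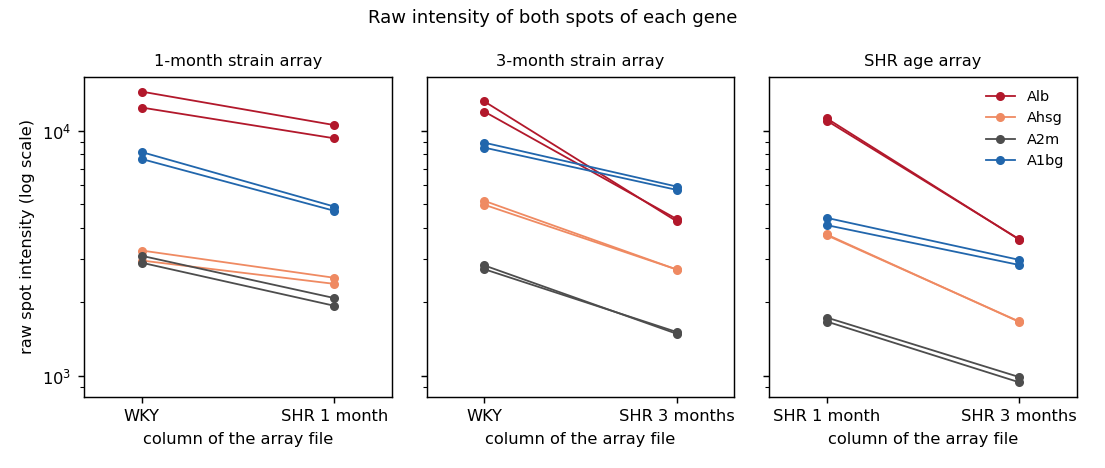
Raw spot intensity (log axis) in the first and second column of each array, with a line for each of the 2 spots of Alb, Ahsg, A2m and A1bg. Every line falls from the first column to the second, and the albumin lines fall most on the 3-month strain array (11954 and 13154 against 4357 and 4265) and on the SHR age array.

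Fetuin-A was slightly higher in SHR than in WKY at 1 month and lower at 3 months. At 1 month the raw intensities of Ahsg were 3241 and 2950 for WKY against 2509 and 2370 for SHR, and the log2 ratio was 0.23 ± 0.05, or 117% of WKY. At 3 months they were 5169 and 4984 against 2712 and 2712, and the log2 ratio was -0.27 ± 0.04, or 83% of WKY. Both spots lay above 0 at 1 month, at 0.19 and 0.26, and both below 0 at 3 months, at -0.30 and -0.24. Both ratios were further from 0 than the pooled SD between spots, but neither reached 1.5-fold, and 534 genes were higher at 1 month and 673 lower at 3 months. On the SHR age array the raw intensities were 3769 and 3742 for SHR of 1 month against 1659 and 1664 for SHR of 3 months. The log2 ratio was -0.48 ± 0.01, with 496 of 5650 genes lower. Fetuin-A thus followed albumin in sign on the 3-month and age arrays, at a smaller size, and differed in sign from it at 1 month.

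Alpha-2-macroglobulin was within 1.5-fold of the median gene on all 3 arrays. The raw intensities of A2m at 1 month were 3083 and 2889 for WKY against 2074 and 1929 for SHR, and the log2 ratio was 0.01 ± 0.0006, or -0.07 with median centring. At 3 months they were 2720 and 2818 against 1508 and 1483, and the ratio was -0.16 ± 0.05, or 89.4% of WKY, with -0.35 under median centring and -0.05 with loess per printing block. On the SHR age array they were 1727 and 1664 against 988 and 940, and the ratio was -0.03 ± 0.007, or -0.16 with median centring. A2m lay in the middle of the genes at 1 month and on the age array, with 55.6% and 47.3% of genes lower, and somewhat below the middle at 3 months, with 23.7% lower.

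The genes that share the acute-phase response with A2m were likewise spread around 0. Of 20 acute-phase genes in the list, 17 were measured, A2m among them, and 0 were 1.5-fold apart on any array. Few genes were: 2.43%, 1.5% and 5.4% of all genes were lower by that much and 0.195%, 0.588% and 2.07% higher. The count of 0 is near these shares. Under alternatives several passed that bound, among them Serpina3n at 1 month in 1 of 11 and Lcn2 on the age array in 4. Below 0 were 64.7%, 58.8% and 52.9% of the 17, against 52.5%, 53% and 51.2% of all genes. The median log2 ratio of the 17 was -0.12 at 1 month, -0.07 at 3 months and -0.03 on the SHR age array. All genes had -0.01 on each. The 3-month median turned positive under 2 of 11 alternatives and the age median under 1. Haptoglobin (Hp), which binds free hemoglobin, had 0.06, 0.10 and 0.22, and C-reactive protein (Crp) had -0.15, 0.06 and 0.40. Orm1, an acid glycoprotein of plasma, had -0.04, 0.05 and -0.19, and the brighter fibrinogen beta probe (Fgb) -0.40, -0.29 and -0.22, whereas the other Fgb probe had 0.04, 0.08 and 0.04. In the interleukin-6 pathway 14 of 17 genes were measured, with a median of 0.08, 0.07 and -0.003. At 3 months 2 of the 14 were at least 1.5-fold lower in SHR, Il6 itself at -0.82 and the kinase Jak2 at -0.71, where 1.5% of all genes were. Stat3, the transcription factor that carries the signal to A2m, had 0.01, 0.12 and -0.09, the feedback inhibitor Socs3 had 0.12, -0.18 and -0.38, and the shared receptor subunit Il6st 0.23, 0.23 and 0.20.

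Of the strain ratios, that of A1bg was lower at 1 month than at 3 months, while those of the other 3 genes were lower at 3 months. Its raw intensities were 7655 and 8169 for WKY against 4707 and 4899 for SHR, and the log2 ratio was -0.29 ± 0.03, or 82% of WKY, with 639 of 5648 genes lower. At 3 months they were 8523 and 8930 against 5730 and 5913, and the ratio was -0.10 ± 0.02. That value was of the other sign with loess per printing block, 0.05, and in the authors' deposited table, 0.08. On the SHR age array the intensities were 4116 and 4406 for SHR of 1 month against 2831 and 2970 for SHR of 3 months, and the ratio was 0.09 ± 0.03. A1bg was the 1 gene of the 4 above 0 on that array, or the 1 below 0, at -0.09, with the sign turned.

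Other genes listed as having higher RNA in female than in male liver were mostly below 0 as A1bg was at 1 month. Their sex bias was taken from the list and was not measured here. Of 13 listed, 11 were measured, A1bg included, and 11 were below 0 at 1 month, 10 at 3 months and 10 on the SHR age array, where 52.5%, 53% and 51.2% of all genes were. Their medians were -0.22, -0.20 and -0.28, below 0 in all 11 alternatives. The signs of Sult2a1, Cyp2c12, Cyp2c22, Prlr and Hao2 at 1 month each turned in 1 or 2 of 11 alternatives. At 3 months that of Cyp2c22, at -0.002, turned in 6. Sult2a1 had -0.12, -0.27 and -0.52, but its other, dimmer probe had 0.21, 0.003 and -0.10. The brighter Cyp2c12 probe, which stands for the gene in these counts, had -0.14, -0.20 and -0.03. The last value turned sign in 4 of 11 alternatives. Its dimmer probe had -0.24, -0.38 and -0.88. Cyp2c7, a retinoid and steroid metabolising cytochrome P450, had -0.71, -0.61 and -0.76, the prolactin receptor Prlr -0.05, -0.41 and -0.78, and the flavin monooxygenase Fmo1 -0.51, -0.27 and -0.39. A1bg was the 1 of these 11 genes above 0 on the SHR age array. At 3 months the 1 gene above 0 was Akr1b7, an aldo-keto reductase, at 0.13.

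**Figure D2:**
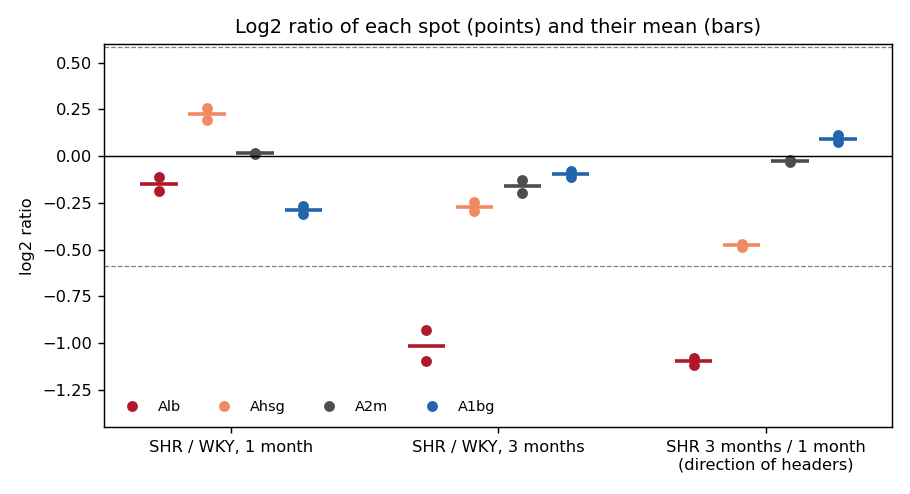
Log2 ratio (vertical axis) of Alb, Ahsg, A2m and A1bg on each array, with a point for each of the 2 spots and a bar for their mean; dashed lines mark a 1.5-fold difference. Albumin lies near -1 at 3 months and in the SHR age panel, and all other means lie inside the dashed lines.

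The strain ratio of 3 of the 4 genes was lower at 3 months than at 1 month, as was that of 48.2% of all genes. With 4 genes, this count is too small to read further. The difference of the log2 ratios, 3 months minus 1 month, was -0.86 for Alb, -0.50 for Ahsg, -0.18 for A2m and 0.19 for A1bg. A dye effect of equal size on both arrays cancels in this difference. For albumin it was a 1.82-fold lower ratio, and 11 of 5610 genes had a lower one. Of the 4 genes it was the 1 at least 1.5-fold lower, as were 1.12% of all genes, and 0 were at least 1.5-fold higher, as were 1.71%. For fetuin-A the difference was 1.41-fold, with 113 genes lower.

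No array compared WKY of both ages, but the 3 log2 ratios can be chained, as the 1-month ratio minus the 3-month ratio plus the SHR age ratio. This holds if each shared RNA was the same on both its arrays and if each WKY pool was of the age of its SHR. If the same WKY pool of mixed age served both strain arrays, the chained ratio would not compare ages. The computed ratio of WKY at 3 months over 1 month was -0.23 for Alb, 0.02 for Ahsg, 0.15 for A2m and -0.10 for A1bg. All 4 were well within 1.5-fold in the headers' direction. With the SHR age array turned, they were 1.96, 0.97, 0.20 and -0.28, so that the level of albumin and fetuin-A in WKY over this span depends on the direction that is not settled.

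**Figure D3:**
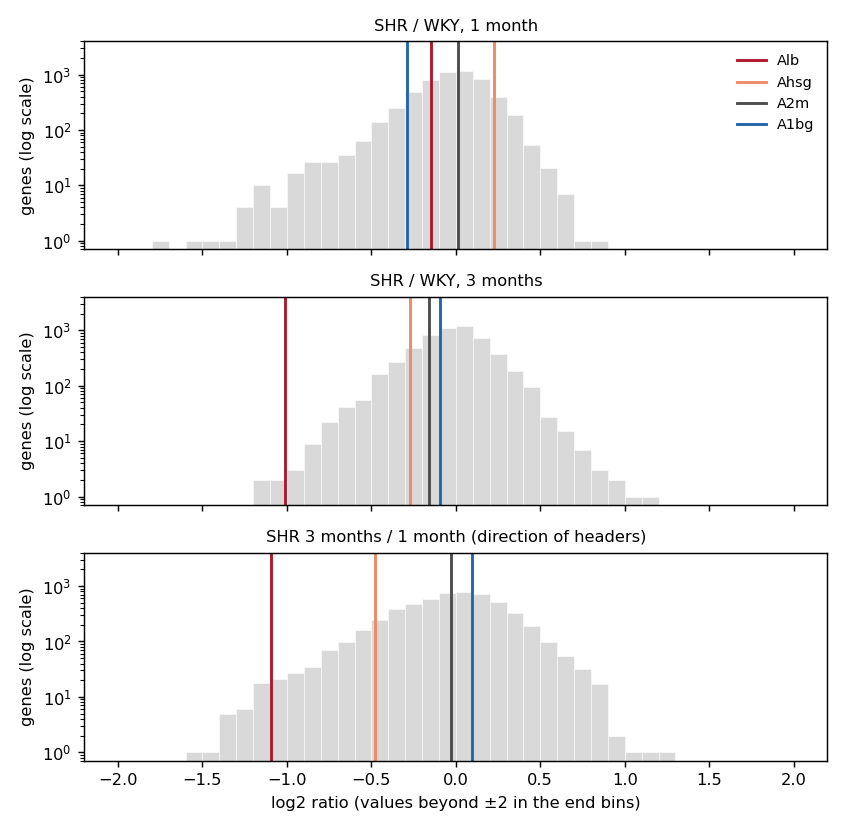
Number of genes (log axis) by log2 ratio in bins of 0.1 for each array, with vertical lines at Alb, Ahsg, A2m and A1bg. Albumin stands at the far left tail at 3 months and in the left tail on the SHR age array, while the other 3 lines lie in the body of the distribution or on its shoulder.

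Most other plasma proteins of hepatocyte origin did not stand with albumin. The 6 lists of secreted proteins held 114 other genes, of which 67 were measured. Their median log2 ratio was -0.06 at 1 month, -0.04 at 3 months and -0.07 on the SHR age array, against -0.01 for all genes on each. Under median centring the 1-month and age medians were 0.02 and 0.002. Below 0 were 59.7%, 56.7% and 55.2% of the 67, against 52.5%, 53% and 51.2% of all genes. At least 1.5-fold lower were 2 at 1 month, 0 at 3 months and 6 on the SHR age array, and higher were 0, 1 and 0. Of all genes, 2.43%, 1.5% and 5.4% were lower by that much and 0.195%, 0.588% and 2.07% higher. These counts depended on the processing. At 3 months Hrg was at least 1.5-fold lower in 4 of 11 alternatives and Apcs in 1. Pzp, at 0.09 under the reported processing, was at -0.68 in 1. Several genes were at least 1.5-fold higher in 1, among them Vtn at 0.93.

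At 3 months the gene nearest in size to albumin was of the opposite sign. Fetuin-B (Fetub), a liver protein related to fetuin-A that protects the egg coat from early hardening, had 0.47, 0.74 and 0.25 on the 3 arrays. Under the reported processing it was the 1 other secreted gene past 1.5-fold at 3 months. Its raw intensities at 3 months averaged 18101 for WKY and 29976 for SHR. The lowest at 3 months were protein C (Proc), an anticoagulant protease, at -0.44, Hrg, a histidine-rich glycoprotein of plasma, at -0.39, and the serine protease inhibitor Serpina3c at -0.38. Transferrin (Tf), the iron carrier of plasma, had -0.29, transthyretin (Ttr), which carries thyroid hormone, 0.06, and hemopexin (Hpx), which binds heme, -0.15.

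On the SHR age array several abundant plasma proteins stood low beside albumin. Serpina3c had -1.09, transferrin -0.99, the pentraxin Apcs -0.88, Hrg -0.81, the lipoprotein component Apoc1 -0.65 and plasminogen (Plg), the precursor of plasmin, -0.61. These 6 are the 1.5-fold lower genes counted above, and all would be higher at 3 months with the sign turned. Hemopexin had -0.42 and complement C9, the last subunit of the membrane attack complex, -0.48. At the other end, Fgf21, a fasting hormone of the liver, had 0.50, the complement protease C1s 0.45, Itih3 0.40 and prothrombin (F2) 0.36. At 1 month these low genes were mostly near 0, with Serpina3c at 0.02, Tf at 0.03 and Plg at -0.03, while Hrg had -0.64 and Apcs -0.41. Hrg and Apcs were dim, with mean log2 intensities of 9.0 and 8.4 where albumin had 13.

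By list, carriers and binding proteins had medians of -0.10, -0.13 and -0.19 over 15 genes, and apolipoproteins -0.08, -0.10 and -0.17 over 9. Protease inhibitors had -0.13, -0.06 and -0.04 over 11, coagulation genes -0.04, 0.05 and 0.03 over 12, complement and lectins 0.02, -0.03 and 0.02 over 12, and hormones and hepatokines -0.07, -0.03 and -0.05 over 8. The signs of the carrier medians held in all 11 alternatives on each array. Those of the other 5 lists turned in at least 1 alternative on 1 or more arrays. Serpina1, the main inhibitor of neutrophil elastase, was the other gene at least 1.5-fold lower at 1 month beside Hrg, at -0.71, with -0.24 and -0.09 on the other arrays.

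**Figure D4:**
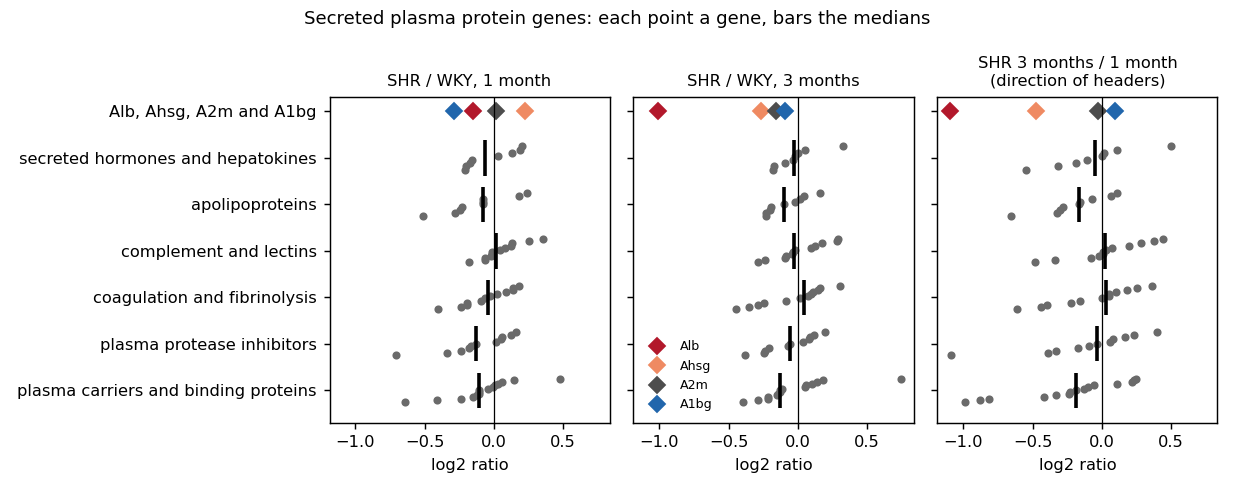
Log2 ratio (horizontal axis) of each measured gene of 6 lists of secreted plasma proteins on the 3 arrays, with bars at the list medians and the 4 named genes as diamonds on top. The medians lie within 0.19 of 0, and albumin lies to the left of every listed gene at 3 months and on the SHR age array.

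Of 26 transcription factors that regulate hepatocyte genes, 23 were measured and 0 were 1.5-fold apart on any array. That is near the shares of all genes, 2.43%, 1.5% and 5.4% lower and 0.195%, 0.588% and 2.07% higher. Several passed that bound in some alternatives, among them Foxa3 at 1 and 3 months in 2 of 11 and Nfic at 3 months in 1. Foxa3, a forkhead factor of liver genes, was the highest of the 23 at 1 and 3 months, with 0.44 and 0.42. Both values were above the 95th percentile of all genes, 0.30 and 0.32. The medians of the 23 were -0.004, -0.04 and -0.08, and the first 2 turned sign in some alternatives. Dbp, a clock-controlled factor named for its site in the albumin promoter, had 0.01, 0.21 and 0.08, Cebpa had -0.25, -0.27 and -0.12, each of the other sign in at least 1 alternative, and Hnf4a 0.21, 0.03 and 0.03. Of the nuclear factor I family, which binds the NF1 site, Nfic had 0.07, -0.54 and -0.44, Nfib -0.36, -0.36 and -0.36, Nfix -0.36, -0.38 and -0.22, and Nfia 0.15, 0.04 and -0.44. Nfic was the lowest of the 23 factors at 3 months, below the 5th percentile of all genes, -0.41.

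Genes of the secretory pathway, through which plasma proteins leave the cell, had medians of -0.11, 0.04 and 0.13 over 16 measured of 39 listed, and the 3-month median was below 0 in 2 alternatives. At 3 months 1 of the 16 was at least 1.5-fold lower, where 1.5% of all genes were. It was Sec31a, a coat subunit of vesicles leaving the endoplasmic reticulum, at -0.73, with -0.65 on the SHR age array. Ppib, a proline isomerase of the endoplasmic reticulum, had -0.996, -0.13 and -1.09, at a dim mean log2 intensity of 8.2. The chaperone Hspa5 had -0.26, -0.08 and 0.35, and its first 2 values were of the other sign in 1 alternative.

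Markers of the cells a liver sample holds moved unevenly. Hepatocyte enzymes that are not secreted had medians of 0.03, -0.05 and 0.03 over 21 genes. At 3 months 12 of them, or 57.1%, were below 0, near the 53% of all genes. Among them the urea cycle enzyme Cps1 had 0.08, 0.10 and 0.03. Markers of stellate and matrix cells had -0.24, -0.20 and -0.27 over 12 genes, with 11, 10 and 10 below 0, where 52.5%, 53% and 51.2% of all genes were. Lymphocyte markers had -0.16, -0.08 and -0.22 over 8 genes, Kupffer cell and macrophage markers -0.12, -0.18 and -0.29 over 5, and red cell genes -0.12, -0.13 and 0.05 over 4. Bile duct markers had -0.16, -0.18 and -0.25 over 3, and the 1 endothelial marker, Kdr, 0.09, 0.13 and 0.07. The signs of the hepatocyte enzyme, Kupffer cell, bile duct and red cell medians turned in some alternatives on at least 1 array, and those of the stellate and lymphocyte medians in none of 11. The part of these markers in the albumin ratio was not tested. In whole liver RNA, fewer hepatocytes and less RNA per hepatocyte cannot be told apart.

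The genes most like albumin over the 3 log2 ratios, by Euclidean distance among 4317 named genes present in both channels, were not plasma proteins. They were Mpc1, a subunit of the mitochondrial pyruvate carrier, at a distance of 0.07, Cited2, a transcriptional co-regulator, at 0.17, the glutamine-rich protein Grp-Ca at 0.19, Spag5, a spindle protein, at 0.25, and Ucp1, the uncoupling protein of brown fat, at 0.25. Mpc1 had -0.15, -0.95 and -1.13, and Ucp1 -0.02, -0.85 and -0.96. Nearest to Ahsg were Ccn5, Bcl2, Kif2a, Itga2 and Insrr, at 0.04 to 0.08. Nearest to A2m were Cyb5a, Cdh6, Ifrd1, Pax8 and Acp3, at 0.01 to 0.03, and nearest to A1bg were Plau, Pold1, Rnf112, Synpo and Stmn2, at 0.06 to 0.07. Among the 4 genes themselves A2m and A1bg were closest, at 0.33, and Alb and A1bg furthest apart, at 1.51. With 3 arrays that share RNA such distances describe these hybridisations only.

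The words of the rule also occur in the descriptions of 8 probes that name other genes, which were left out. Besides Fetub, Ttr and Dbp they included an unnamed alpha albumin probe, the milk protein Lalba, parvalbumin (Pvalb) of muscle and neurons, and Serpinb7. The alpha albumin probe, for a relative of albumin, had -0.32, 0.05 and 0.09, at mean raw intensities of 294, 245 and 264 in the first column, and so did not show the low 3-month ratio of Alb. Lalba had 0.30, 0.33 and 0.26 and Pvalb -0.02, 0.13 and -0.01. Both were bright, with mean raw intensities of 13986 and 37005 for WKY at 1 month against local backgrounds of 45.4 and 48.4. The albumin spots read 12415 and 14419 there. Genes known from milk and muscle thus gave strong signal with this liver RNA, and how far the spot intensities reflect their named gene was not tested.

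**Figure D5:**
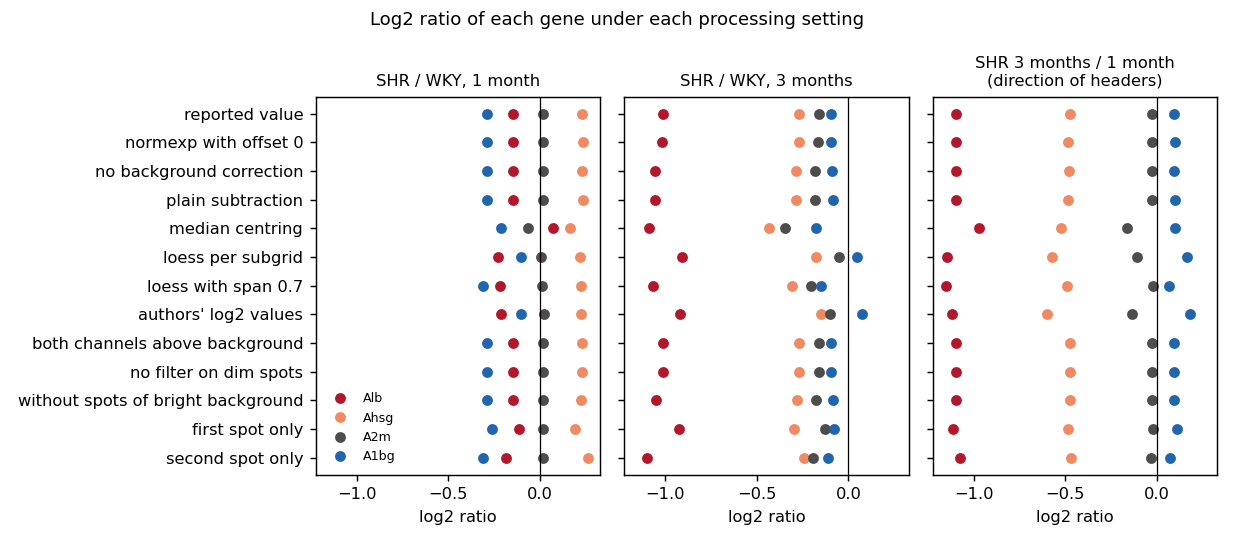
Log2 ratio (horizontal axis) of Alb, Ahsg, A2m and A1bg on each array under the reported processing and each alternative (rows). Albumin stays between -1.10 and -0.91 at 3 months and between -1.15 and -0.97 on the SHR age array, while Alb and A2m at 1 month and A1bg at 3 months lie on both sides of 0.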

How the data were processed

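The deposited scanner files give, for each of 12288 spots, the mean raw intensity of both channels with the local background intensity and its SD, per the file headers. The software and settings that made them are not given in the sources used here. Labelled cDNA was made from 10 µg of total RNA, per the labels. A separate table holds the authors' normalized log2 values, with no stated scale, centring or direction. They correlated positively with the ratios computed here, at r of 0.71, 0.57 and 0.80 over spots, and had medians of -0.005, 0.005 and 0.0008, so they were read as log2 of the second over the first column.

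Background was corrected with normexp (offset 50) of limma 3.58.1 in R 4.3.3 and ratios were normalized by global loess (span 0.3), with 894 empty or unnamed spots given no weight in the loess. Spots were kept where either channel exceeded its background by 2 SD, the spots of an accession were averaged, and the brightest probe stood for a gene with more than 1. The 8 spots of the 4 genes passed in both channels. Of the probes, 2727 were named by RefSeq accession, 1051 by current symbol, 521 by synonym and 156 by the file's symbol, and 1235 had none. Alb was matched by symbol and the other 3 genes by accession. The number of arrays, 1 per comparison, limits the precision, and no test was run. The processing code was first tested on simulated data. Tables and plots used Python 3.11.15, numpy 2.4.6, pandas 2.3.3 and matplotlib 3.10.9.

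The 4 genes and the 19 lists, which include these 4, were chosen with earlier results of these data known. By rule, the text names the 4 genes, up to 3 genes at each end of a list per array, any measured gene of the interleukin-6 list, and the 5 genes most like each of the 4. Orm1, Cebpa, Cps1 and the probes left out for their descriptions were named outside this rule, after their values were seen. Some genes of the lists are counted but not reported here by name. A difference of 1.5-fold is used as a descriptive bound.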

Additional observations from a re-analysis of the deposited data

Results flagged for a closer look

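The strain difference of fetuin-A (Ahsg) pointed in opposite directions at the 2 ages: SHR over WKY was 0.227 on the log2 scale at 1 month and -0.2693 at 3 months. The pooled SD between spots was 0.056 and 0.046 on these arrays, and both ratios exceeded 2 times that SD. Each rests on 1 array and the difference was not tested.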

How the results depend on the processing

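The albumin ratio was below 0 in all 12 alternatives at 3 months and in the headers' direction on the SHR age array, whereas at 1 month median centring gave 0.0734. Median centring also gave -1.09 at 3 months, -0.97 on the age array and -1.16 for the change with age. Loess per printing block gave -0.23, -0.91 and a change of -0.68, loess with span 0.7 gave -0.22, -1.07 and -1.15, and the authors' values gave -0.21, -0.92 and a change of -0.71. The first spot alone gave -0.93 and the second -1.10 at 3 months. With the age array turned, albumin was at 1.10 and the median of the other secreted genes at 0.0726. Their median was 0.0156 at 1 month and 0.0023 on the age array with median centring. With the authors' values 2 of the 4 genes were 1.5-fold apart on the age array, Ahsg at -0.60 being the second.

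Counts of all genes at least 1.5-fold apart moved far more. At 1 month, where 11 were higher and 137 lower, higher genes numbered 42 with normexp offset 0, 46 with plain subtraction, 595 with median centring, 20 with loess per block, 264 with span 0.7 and 104 with the authors' values, and lower genes 417 with median centring and 74 with span 0.7. At 3 months, where 33 were higher and 84 lower, higher genes numbered 50 without background correction, 103 with plain subtraction, 434 with median centring, 61 with span 0.7 and 156 with the authors' values. Lower genes there numbered 249 without background correction, 292 with plain subtraction, 132 with median centring, 229 with the authors' values and 198 without spots of bright background. On the age array, where 117 were higher and 305 lower, higher genes numbered 203 with offset 0, 209 with plain subtraction, 876 with median centring, 291 with span 0.7 and 223 with the authors' values, and lower genes 567 with median centring. Turning its sign gave 305 higher and 117 lower. The cause was not tested.

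No paired analysis was possible because each comparison had 1 array. For the same reason there was no replicate to leave out. The members' spots were far above background, but how far they reflect their named genes was not tested. The spread between animals is unknown.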
